A study of Mus musculus with 102 samples.

Results

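The 715 CpGs described here lie in 6 windows of 15 to 25 kb around the imprinted genes Grb10, Plagl1, Igf2r, Impact, Zrsr1 and Trappc9. The windows were set by position on the mm9 mouse genome. No measured value entered this rule, although earlier results of these data were known when it was made. The 715 are all the CpGs of these windows among the 2177608 CpGs of a capture bisulfite sequencing table. Grb10 contributed 239 CpGs, Trappc9 137, Plagl1 99, Zrsr1 99, Igf2r 78 and Impact 63. Of the 102 samples of the series, 24 were measured by SureSelect capture, in which RNA baits enrich regulatory DNA before bisulfite treatment, and only these cover the windows. All came from mouse embryonic stem cells (mESCs) of C57BL6/J background that carry loxP sites around catalytic exons of Dnmt3a and Dnmt3b, the de novo methyltransferase genes. The TTKO cells, a clone of this line, had in addition all Tet alleles mutated and so lacked the TET enzymes that oxidise methylated cytosine. They were taken untreated at day 0 and at days 4, 8, 10, 13, 17 and 29 after transduction with Cre protein, which deletes the floxed Dnmt3 exons. Wild-type (WT) cells, the parental line with intact TET and DNMT3, were taken untreated at day 0. Cells grew on feeders until about a day after transduction and without feeders from then on.

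The 3 replicates of each condition are joined in 1 column in the table, which leaves no spread between replicates to report, and every test below compares pooled libraries rather than conditions. A mean ± SD is over the CpGs of a region, which share reads and are not replicates. The capture data hold no mock-treated cells, and loss after Cre and change with time in culture cannot be told apart. Alleles were not separated either, so a level near the middle of the scale can stand for 1 methylated parental allele or for partial methylation of both. Coverage of the 715 CpGs ran from 50 to 1442 reads per column with a median of 247 reads.

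Imprinted genes are expressed from 1 parental allele because a germline differentially methylated region (DMR) carries methylation inherited from the egg or the sperm. At the loci described here the mark is known to come from the egg, and it usually covers a CpG island that serves as promoter on the paternal allele. Once set, the mark is copied at each cell division by DNMT1 and protected by the zinc finger protein ZFP57, which binds the methylated hexamer TGCCGC and recruits the corepressor KAP1. Plagl1 encodes a growth-suppressing zinc finger factor and Zrsr1 a splicing factor nested inside Commd1. Trappc9 encodes a trafficking protein whose intron holds the promoter of the noncoding RNA Peg13, and an intron of the growth factor clearance receptor gene Igf2r holds the promoter of the antisense RNA Airn. Impact regulates a kinase of the amino acid stress response, and Grb10 is an adaptor that restrains insulin and growth factor signalling.

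CpG islands were found on the mm9 sequence as stretches of at least 200 bases with at least 50% GC and an observed to expected CpG ratio of at least 0.6. Islands held 535 of the 715 CpGs and 180 lay outside. The Plagl1 island (chr10:12810184-12811209) spans the annotated 5′ end of the gene, and the Zrsr1 island (chr11:22871884-22873503) spans the 5′ end of Zrsr1 within Commd1. The Trappc9 island (chr15:72639521-72641169) lies in an intron, and the Igf2r island (chr17:12934128-12935543) lies in an intron of Igf2r across the annotated start of Airn. Impact has a small and a main island downstream of its first exon. Grb10 has a downstream island (chr11:11925414-11926726), the known place of its germline mark, and an island near the annotated 5′ end of the gene, which lies beyond it at 11938686 (chr11:11936363-11938161, called the 5′ island below).

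The hexamer TGCCGC, searched on both strands as TGCCGC and GCGGCA, occurred 8 times in the Igf2r island, 6 times in the Plagl1 island, 5 times in the Trappc9 island, 4 times in the main Impact island and 2 times in the Zrsr1 island. The downstream Grb10 island held 4 matches and the 5′ island 5. Among the 7271 islands of mm9 that are of comparable length (1 to 2 kb) the median was 1 match, 63.9% held at least 1, 32.5% at least 2, 6.22% at least 4, 2.45% at least 5, 0.935% at least 6 and 0.124% at least 8. A match is a description of the letters and not a bound site. The 200 bases richest in matches are shown for the 3 islands with the most matches among those at an intermediate level, since the hexamer is a sequence feature tied to keeping imprints. Stretches in annotated coding or untranslated sequence were passed over, the sequence is the plus strand of mm9, and capitals mark the matches.
Plagl1, chr10:12810864-12811063: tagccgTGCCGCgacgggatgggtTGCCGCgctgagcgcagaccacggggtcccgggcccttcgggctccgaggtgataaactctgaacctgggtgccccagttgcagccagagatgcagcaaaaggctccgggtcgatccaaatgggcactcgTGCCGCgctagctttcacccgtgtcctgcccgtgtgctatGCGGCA
Trappc9, chr15:72640354-72640553: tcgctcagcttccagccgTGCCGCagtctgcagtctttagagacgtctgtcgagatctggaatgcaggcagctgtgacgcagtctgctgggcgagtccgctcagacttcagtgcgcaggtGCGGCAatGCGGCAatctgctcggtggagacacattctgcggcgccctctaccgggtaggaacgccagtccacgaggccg
Igf2r, chr17:12935052-12935251: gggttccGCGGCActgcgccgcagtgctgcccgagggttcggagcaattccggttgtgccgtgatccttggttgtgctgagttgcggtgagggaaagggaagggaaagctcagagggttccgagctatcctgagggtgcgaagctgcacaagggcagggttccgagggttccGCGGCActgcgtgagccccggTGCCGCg
The Plagl1 stretch holds 4 matches and the other two 3 each. Of 200-base tiles laid over all islands without any search for the richest place, 13.3% held at least 1 match and 0.179% at least 3. Of the 19 measured CpGs in the Plagl1 stretch, levels ran from 22.1% to 28.2% at day 0, from 16.6% to 30.1% by day 29 and from 34.7% to 46.9% in WT. The 18 CpGs of the Trappc9 stretch ran from 35.3% to 48.4% at day 0 and 20.4% to 49.3% at day 29, and from 50.5% to 65.9% in WT. The 17 CpGs of the Igf2r stretch ran from 30.0% to 44.2% at day 0, 30.8% to 44.9% at day 29 and 34.8% to 49.3% in WT. In the Plagl1 stretch the WT range therefore lay wholly above the TTKO range of day 0, in the Trappc9 stretch likewise, and in the Igf2r stretch the ranges overlapped.

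Before Cre, the islands of Plagl1, Zrsr1, Trappc9, Igf2r and Impact stood at intermediate levels and those of Grb10 at low ones. The 87 CpGs of the Zrsr1 island averaged 25.3% ± 2.02 in TTKO at day 0, with the lowest CpG at 18.9% and the highest at 29.2%. The 62 CpGs of the Plagl1 island averaged 25.3% ± 2.39, from 19.4% to 30.8%. Within either island the spread between CpGs was small beside the level. The main Impact island averaged 40.4% ± 4.09 over 29 CpGs, the Igf2r island 44.4% ± 7.54 over 60 CpGs and the Trappc9 island 47.9% ± 6.44 over 85 CpGs. These 3 were less even, from 33.8% to 47.4%, from 30% to 70.3% and from 35.3% to 75% in the same order. CpGs outside islands in the same 5 windows averaged 65.0% ± 19.8 over 141 CpGs, and ran from 6.42% to 91.9%.

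Grb10 went against its place among loci with an intermediate mark. Its downstream island averaged 6.10% ± 8.73 over 106 CpGs in TTKO at day 0 and 3.18% ± 1.90 in WT, with the highest WT CpG at 12.1%. The median CpG of this island stood at 3.65% in TTKO at day 0. Only 5 of its 106 CpGs reached 20% in TTKO, at most 68.6% at the CpG 1 base inside the island edge, and none did in WT. The 5′ island averaged 7.83% ± 9.01 over 94 CpGs in TTKO and 2.08% ± 1.80 in WT. Weighted by reads the 5′ island stood at 13.0% in TTKO at day 0 and 2.73% in WT. Neither line thus showed a block of intermediate CpGs in the Grb10 islands, which are given apart from the others below. Beside them, the 22 CpGs outside the islands but under 500 bases away averaged 48.2% ± 20.0 in TTKO and 10.8% in WT.

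**Figure D1:**
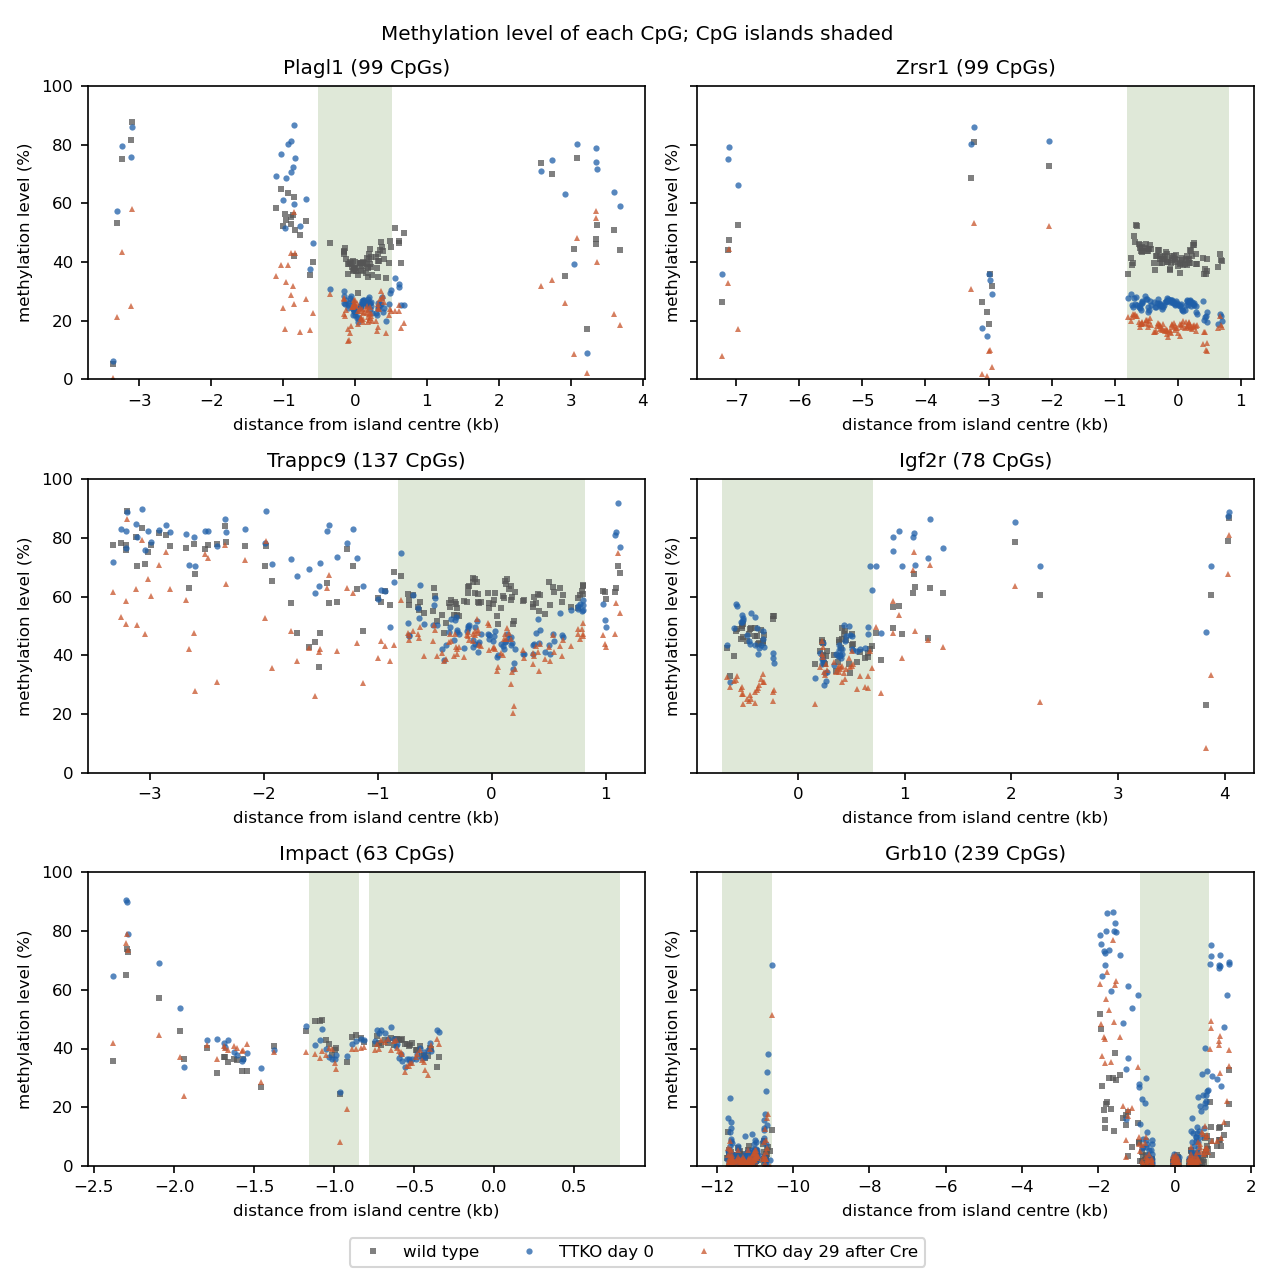
Methylation level (%) of each measured CpG against its distance (kb) from the centre of the island (for Grb10 the 5′ island, for Impact the main island), with WT as grey squares, TTKO day 0 as blue circles, TTKO day 29 as orange triangles and islands shaded. Island CpGs form bands, narrowest in Plagl1 and Zrsr1, with WT above TTKO in Plagl1, Zrsr1 and Trappc9. CpGs outside islands lie mostly higher at day 0 and lower at day 29 except next to the Impact islands, and the Grb10 islands lie mostly near 0.

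After Cre most of the island methylation was still present at day 29 at 5 loci, whereas CpGs around the islands mostly lost more points of methylation. By the share of day 0 kept, those under 500 bases from the Impact islands (98.6%) and the Igf2r island (70.9%) were close to their islands. Tested per CpG with a two-sided Fisher's exact test on methylated and unmethylated reads, adjusted by Benjamini-Hochberg over all 2177608 CpGs, 327 of the 715 CpGs (45.7%) were lower at day 29 than at day 0, beside 59.3% of the whole table. None was higher, beside 0.171% of the table, and 1 was higher at an unadjusted p under 0.05. Outside islands 156 of 180 CpGs were lower (86.7%), or 117 of 141 (83.0%) without Grb10, close to the 84% of all CpGs outside islands in the table. In the islands other than Grb10's 110 of 335 (32.8%) were lower, beside 22.6% of all island CpGs of the table, whose mean was 10.4% at day 0. By mean level, the 180 CpGs outside islands kept 64.3% of day 0, beside 54.5% over all such CpGs of the table, and the 335 island CpGs kept 83.5%, beside 55.5% over all island CpGs. Coverage differed between loci and sets how small a change can be called: the median island CpG had 125 reads at day 0 in Igf2r, 267 in the main Impact island, 274 in Trappc9, 348 in Plagl1 and 721 in Zrsr1.

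From day 0 to day 29 the main Impact island (chr18:13131588-13133154) had the smallest relative change of the 5, an order that did not hold at every time point. Only 29 of the 117 CpGs in its sequence were measured. Its means over the 7 time points were 40.4%, 38.3%, 41.7%, 37.8%, 41.2%, 34.6% and 38.5%. Of the 29 measured CpGs 0 passed the test, and 1 was lower at an unadjusted p under 0.05. The day 29 mean was 95.3% of the day 0 mean. At day 17 the share was 85.7%, below 91.1% at Trappc9, 88.9% at Igf2r and 104% at Plagl1, and near 85.4% at Zrsr1. The band at the level of this island reached beyond the islands, and 59 of the 63 CpGs of the window lay between 30% and 70% at day 0. The 10 CpGs outside the islands but under 500 bases from one averaged 39.3% ± 4.19 at day 0 and 38.8% ± 3.66 at day 29. The 12 CpGs further out went from 57.7% ± 20.3 to 47.9% ± 17.9 and kept 82.9%. Outside the islands 7 of 22 CpGs were lower at day 29 (31.8%), beside 84% of such CpGs in the table. Within the small island (chr18:13131216-13131524) 2 of 12 CpGs fell, and they stood out from their neighbours. The CpG at chr18:13131406-13131407, named after its values were seen, had 25.3% at day 0 (95% Wilson interval 20.9 to 30.2%, 336 reads) and 7.97% at day 29 (5.32 to 11.8%, 276 reads), and WT had 24.6%. The CpG at chr18:13131449-13131450 had 37.4% (33.0 to 42.0%) at day 0 and 19.5% (16.0 to 23.5%) at day 29, the smallest share kept among Impact CpGs of 30 to 70%. Wilson intervals here and below cover counting error only, without replicate or PCR error.

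The Trappc9 island changed little as well. Its means were 47.9%, 45.7%, 46.5%, 43.7%, 45.4%, 43.7% and 43.4% from day 0 to day 29, and 16 of its 85 CpGs (18.8%) fell. Among Trappc9 CpGs of 30 to 70% at day 0 with at least 100 reads in every column, the largest share kept was at chr15:72640222-72640223, with 41.1% (35.6 to 46.8%) at day 0 and 47.6% (42.0 to 53.3%) at day 29, which did not pass the test (adjusted p = 0.181, Fisher's exact test). Outside the island 47 of 52 CpGs fell, from a mean of 75.2% ± 10.5 to 54.0% ± 14.9. The smallest share kept in the same class lay there, 721 bases from the island, where 61.1% (55.6 to 66.4%) at day 0 stood against 26.2% (22.0 to 30.9%) at day 29 at chr15:72638799-72638800.

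The Plagl1 island had higher means at day 4 than at day 0. In time order they were 25.3%, 33.0%, 31.9%, 29.9%, 30.1%, 26.3% and 22.8%, the last being 90.2% of the first. By day 29, 7 of 62 CpGs (11.3%) fell. Outside the island 33 of 37 CpGs fell, from a mean of 59.2% ± 21.5 to 29.8% ± 14.4. Among Plagl1 CpGs of 30 to 70% at day 0 with at least 100 reads, the smallest share kept was 2532 bases from the island at chr10:12813741-12813742, from 39.2% (35.6 to 42.8%) to 8.70% (6.76 to 11.1%). A CpG 96 bases beyond the island, chr10:12811305-12811306, had 32.5% (27.2 to 38.2%) at day 0 and 25.4% (20.2 to 31.5%) at day 29, the largest share kept among CpGs of this class at the locus with at least 100 reads.

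At day 4 the 62 island CpGs of Plagl1 all had a higher level than at day 0, by 7.71 points on average. The test called 8 of them higher and 0 lower, and these were the only CpGs of the 715 called higher at day 4 (1.12%), beside 0.137% of the table. At an unadjusted p under 0.05 there were 37 higher and 0 lower in this island. Lower at day 4 were 20 of the 715 CpGs (2.80%), beside 1.55% of the table; 19 of them were in the Grb10 window and 1 in the main Impact island. With an over-dispersion between replicates allowed for, no CpG of the 715 was called at day 4 in either direction.

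Relative to day 0, the Igf2r and Zrsr1 islands lost more than the other 3, an order that for Plagl1 rests on its day 0 value. With day 4 as the baseline, chosen after seeing the data, the day 29 mean was 69.1% of it at Plagl1, 71.3% at Igf2r and 65.7% at Zrsr1, against 95.1% at Trappc9. Igf2r island means were 44.4%, 45.4%, 44.4%, 43.3%, 42.2%, 39.5% and 32.4% from day 0 to day 29, and 23 of 60 CpGs (38.3%) fell. A gap of 383 bases without measured CpGs splits this island, and the sides differed, which was seen in the data and not set beforehand. The 26 CpGs on the side of the Airn start averaged 46.7% ± 6.43 at day 0 and 28.4% ± 2.99 at day 29, with 16 CpGs lower, and kept 60.8%, less than the 67.2% of the CpGs outside the island. The 34 CpGs on the far side averaged 42.6% ± 7.93 and 35.4% ± 4.33, with 7 lower. At day 29 the near side ran from 23.5% to 33.6% and the far side from 23.3% to 44.9%, and WT had 46.9% ± 4.29 and 41.7% ± 3.87. Zrsr1 island means were 25.3%, 27.4%, 26.2%, 25.6%, 24.2%, 21.6% and 18%, all 87 CpGs had a lower level at day 29 than at day 0, and 62 (71.3%) passed the test at the higher coverage of this locus.

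CpGs around these islands fell in every case that was measured. Outside the Igf2r island 18 of 18 CpGs were lower, from 74.8% ± 11.7 to 50.2% ± 19.4. Among CpGs of 30 to 70% at day 0 with at least 100 reads in every column, which at Igf2r are 20 of the 61 in this class, the smallest share kept was at chr17:12938662-12938663, with 48.0% (43.3 to 52.6%) at day 0 and 8.39% (6.15 to 11.3%) at day 29, and the largest share kept was in the island at chr17:12934196-12934197, 31.0% (23.2 to 40%) and 29.2% (22.1 to 37.6%). Outside the Zrsr1 island 12 of 12 were lower, from 52.9% ± 27.4 to 22.1% ± 19.7. These lay over 1 kb away, and the table holds no nearer CpG outside that island. At Grb10 39 of 39 CpGs outside islands fell, from 59.8% ± 20.5 to 34.7% ± 19.6, and 61 of 200 island CpGs. There the smallest and largest shares kept among the 21 of 24 class CpGs with at least 100 reads in every column were 33.1% (28.4 to 38.3%) at day 0 against 8.83% (6.47 to 11.9%) at day 29 at chr11:11935976-11935977, and 68.3% (64.7 to 71.7%) against 42.6% (39.3 to 46.0%) at chr11:11938434-11938435.

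**Figure D2:**
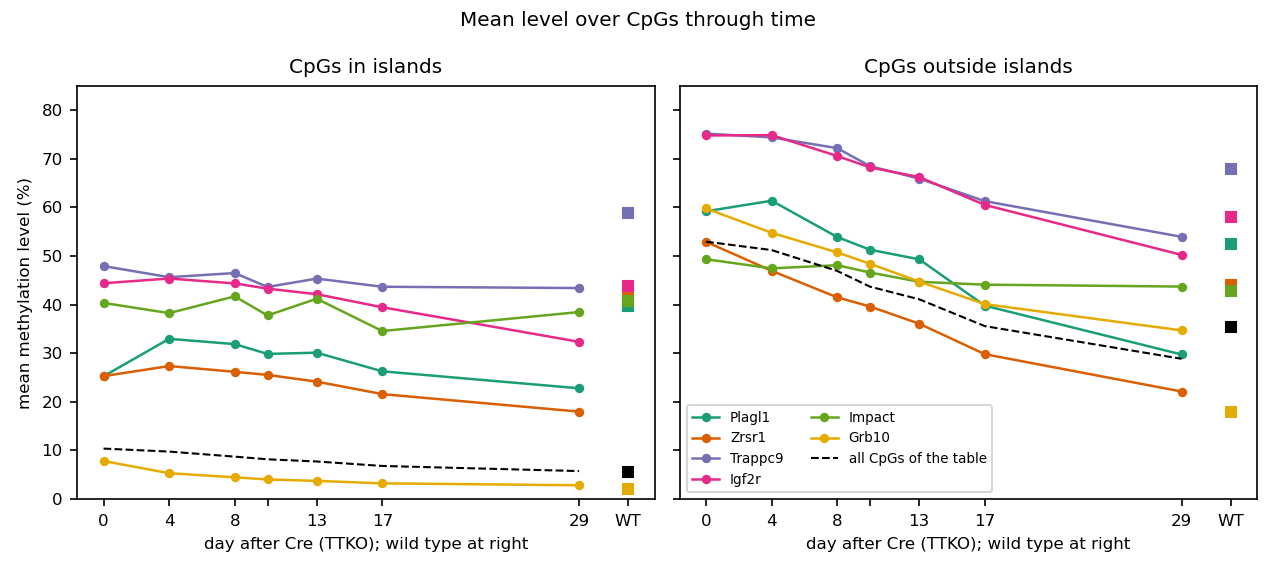
Mean methylation level (%) over CpGs in islands (left) and outside islands (right) against days after Cre in TTKO cells, with WT as squares at the right edge. Impact and Grb10 are shown by the main and the 5′ island, and dashed lines give all CpGs of the table in or outside islands. The island means of Impact and Trappc9 show no steep fall, with Impact lowest at day 17. Plagl1 peaks at day 4, and outside islands all loci but Impact lose at least 20 points.

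Among CpGs of 30 to 70% at day 0, the share of the day 0 level left at day 29 had a median of 94.6% at Impact (quartiles 88.9 and 99.5%, 59 CpGs) and 89.6% at Trappc9 (81.2 and 97.0%, 97 CpGs). It was 72.0% at Igf2r (58.0 and 88.1%, 61 CpGs), 46.6% at Grb10 (35.9 and 57.9%, 24 CpGs), 44.8% at Plagl1 (36.6 and 69.4%, 20 CpGs) and 26.6% at Zrsr1 (25 and 27.8%, 4 CpGs). Over all 427502 CpGs of the table in this class the median was 32.8% (22.5 and 44.0%), and over the 54130 of them in islands 35.6%. The class catches different places at different loci, because 3 of the 62 Plagl1 island CpGs and none of the 87 Zrsr1 island CpGs reach 30% at day 0. Over island CpGs of at least 10% at day 0, the medians were 88.4% at Plagl1 and 71.9% at Zrsr1, against 48.6% and 28.5% outside the islands.

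Set beside other islands, the intermediate ones kept high shares. The capture covers 1348 islands with at least 20 measured CpGs and a mean of 20 to 70% at day 0, limits chosen after the levels of the loci were known. In these the day 29 mean was a median 40.6% of the day 0 mean (quartiles 33.1 and 48.3%). By this share the main Impact island (95.3%) ranked 1, the Trappc9 island (90.6%) 6, the Plagl1 island (90.2%) 7, the Igf2r island (72.9%) 23 and the Zrsr1 island (71.2%) 29, counted from the largest share. Against the day 4 mean the ranks were 4 for Impact, 5 for Trappc9, 58 for Igf2r, 71 for Plagl1 and 91 for Zrsr1, beside a median share of 45.0% over the same islands. The Plagl1 island had the largest rise in mean from day 0 to day 4 among the 1348, where the median difference was -3.12 points.

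**Figure D3:**
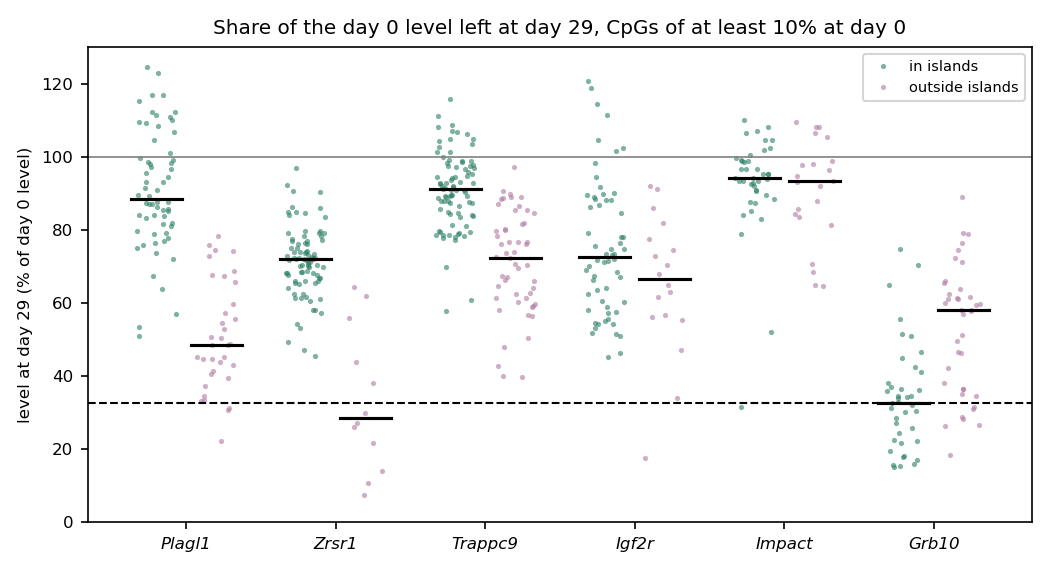
Level at day 29 as a percentage of the day 0 level for each CpG with at least 10% at day 0, by locus, in islands (green) and outside islands (purple), with medians as black bars and the table median of the 30 to 70% class dashed at 32.8%. Island CpGs of Plagl1 and Zrsr1 lie well above those outside, Impact lies near 100% in both, and Grb10 is the other way round.

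The comparison of the lines before Cre addresses the level reached without TET, although a difference due to TET and one particular to the TTKO clone cannot be told apart. Of all CpGs measured, 44.7% were higher in TTKO than in WT and 0.907% lower, by the same test. In the 6 windows 164 of 715 CpGs were higher (22.9%) and 210 lower (29.4%). The lower ones were 85 of the 87 CpGs of the Zrsr1 island, 62 of 62 of the Plagl1 island and 52 of 85 of the Trappc9 island, with 10 outside islands and 1 in the downstream Grb10 island, beside 0.491% of island CpGs and 1.19% of other CpGs in the table. Of the higher ones 98 lay outside islands, 17 of 106 in the downstream Grb10 island (16.0%), 46 of 94 in the 5′ Grb10 island (48.9%) and 3 in the other islands, beside 19.5% of island CpGs of the table. The WT mean was 41.7% ± 3.21 in the Zrsr1 island, 16.4 points above TTKO, and its lowest WT CpG (35.8%) lay above its highest TTKO CpG (29.2%). It was 39.8% ± 3.34 in the Plagl1 island, 14.5 points above, and 58.9% ± 4.08 in the Trappc9 island, 11 points above.

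In the Igf2r and main Impact islands the means of the lines lay within 1 point. Igf2r had 43.9% ± 4.80 in WT against 44.4% in TTKO, with 0 island CpGs lower and 2 higher (1 and 3 at an unadjusted p under 0.05). The main Impact island had 40.7% ± 2.5 against 40.4%, with 0 called in either direction and 1 higher at an unadjusted p under 0.05. Among the 1348 islands above, TTKO was below WT in 11 (0.816%) and the median difference was 21.3 points higher in TTKO. The Zrsr1, Plagl1 and Trappc9 islands had the 3 lowest differences of all, and the main Impact island was the 11th.

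Outside the islands the direction was mostly that of the table, where 61.7% of such CpGs were higher. TTKO was higher than WT at 38 of 39 such CpGs at Grb10, 15 of 18 at Igf2r, 16 of 37 at Plagl1, 18 of 52 at Trappc9, 6 of 12 at Zrsr1 and 5 of 22 at Impact. Lower ones numbered 6 at Plagl1, 3 at Trappc9 and 1 at Zrsr1. Grb10 had the widest gap, a mean of 59.8% ± 20.5 against 17.9% ± 11.6 in WT. The largest single difference, 68.2 points, was at chr11:11935670-11935671 in an intron of Grb10, 692 bases from the 5′ island, with 79.9% (76.3 to 83.1%) in TTKO and 11.7% (9.04 to 15%) in WT. At the other loci the largest difference among CpGs with at least 100 reads in every column was 31.7 points at Zrsr1 (chr11:22865580-22865581), 31.0 points at Plagl1 (chr10:12814047-12814048), 28.1 points at the edge of the Igf2r island (chr17:12935508-12935509), 27.5 points at Trappc9 (chr15:72638828-72638829) and 25.7 points upstream of Impact (chr18:13130071-13130072).

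**Figure D4:**
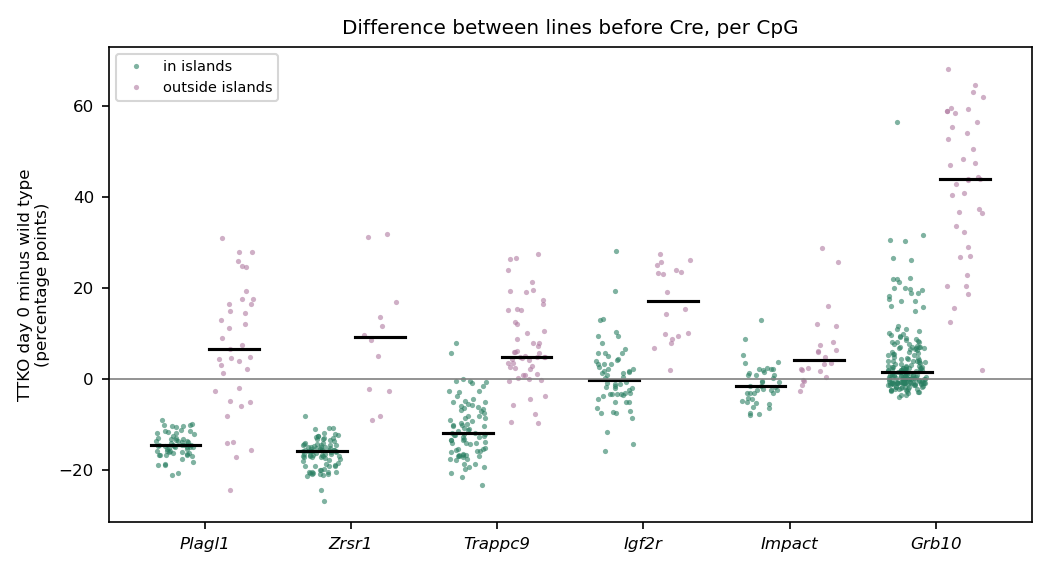
TTKO day 0 level minus WT level (percentage points) of each CpG by locus, in islands (green) and outside (purple), with medians as black bars. All Plagl1 and Zrsr1 island CpGs lie below 0, most Trappc9 island CpGs do, the Igf2r and Impact islands centre on 0, and CpGs outside the Grb10 islands lie 1.88 to 68.2 points above 0.

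At Grb10 the mean level in TTKO was higher towards the island edges, although CpGs called higher in TTKO than in WT also lay 200 bases or more from an edge. Island CpGs under 200 bases from an edge averaged 15.9% ± 14.1 in TTKO at day 0 (42 CpGs, WT 4.13%) and those further in 4.53% ± 4.54 (158 CpGs, WT 2.28%). By day 29 these means were 6.40% and 2.13%. The means at edge and interior were closer at Plagl1 (25.9% and 25.1%) and Zrsr1 (24.7% and 25.4%), and 55.9% and 46.0% at Trappc9 and 49.6% and 42.0% at Igf2r. CpG density also differed between these places, with a median of 23 other CpGs within 100 bases in the Grb10 interior, 21 at Plagl1, 14 at Zrsr1, 13 at Igf2r and 12 at Trappc9, against 1 to 4 at CpGs 500 bases or more outside the islands.

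CpGs inside the hexamer were set beside the other island CpGs, on few CpGs and with no test. At Trappc9 the 5 motif CpGs averaged 46.7% ± 2.31 at day 0 and 46.4% ± 2.80 at day 29 (99.4% of day 0), the other 80 island CpGs 48.0% and 43.2% (90.0%). At Plagl1 5 motif CpGs averaged 26.9% and 25.9% (96.3%) and the other 57 25.1% and 22.5% (89.7%). At Igf2r the shares were 77.5% over 5 and 72.4% over 55 CpGs. The 2 motif CpGs of the main Impact island stood at 98.3%, in an island that as a whole kept 95.3%. In the downstream Grb10 island the 4 motif CpGs lay between 3.19% and 5.77% at day 0. The 1 measured motif CpG of the 5′ Grb10 island (chr11:11936414-11936415) went from 22.7% to 6.96% and kept 30.6%, less than the 36.3% of its island, and no motif CpG of the Zrsr1 island was measured.

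The loss was also expressed as rates, with kme the rate at which unmethylated cytosine becomes methylated and kde the rate of the reverse step, which without TET is left to imperfect copying. For each CpG the time course was fitted by a grid of rates in which DNMT3 activity decays after Cre. The model treats all alleles of a CpG alike, starts from steady state and can only fall, so an allele-specific mark and the Plagl1 rise are outside it. Both rates were identified at 608 of the 715 CpGs, and 203 of these also had narrow 95% credible ranges (under 2 on the log2 scale). Rate medians here and below, those of the table included, are over identified CpGs only. These were 22 of 29 in the main Impact island, 73 of 85 at Trappc9, 54 of 62 at Plagl1, 60 of 60 at Igf2r and 87 of 87 at Zrsr1. The CpGs left out include slow fits, such as a log2 kde of -9.59 at chr15:72640222-72640223 in the Trappc9 island. The median log2 kde (per day) was -8.21 in the Trappc9 island (quartiles -8.90 and -7.25), -8.14 in the main Impact island (-9.04 and -7.28), -6.70 in the Plagl1 island, -6.15 in the Igf2r island and -6.01 in the Zrsr1 island (-6.15 and -5.74). It was -4.36 over the whole table and -3.68 over island CpGs of the table, which as a whole had a median level of 1.64% at day 0. As rates these medians are 0.00337 per day at Trappc9 and 0.00354 at Impact, against 0.0155 at Zrsr1 and 0.0486 over the table.

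The kme of these islands lay on either side of the median of island CpGs in the table, most of which stood at far lower levels at day 0. The median log2 kme was -8.69 in the main Impact island, -8.35 at Trappc9, -7.80 at Plagl1, -7.39 at Zrsr1 and -6.36 at Igf2r, beside -8.08 over island CpGs of the table and -4.36 over all its CpGs, with -9.86 the lowest rate of the grid. Narrow ranges were found at 0 of 29 CpGs in the main Impact island, 1 of 85 at Trappc9, 0 of 62 at Plagl1, 6 of 60 at Igf2r and 48 of 87 at Zrsr1, the island with the most reads per CpG. Outside the islands kme was higher, with medians of -3.81 at Plagl1, -3.95 at Igf2r, -4.09 at Zrsr1, -4.23 at Trappc9, -4.50 at Grb10 and -6.15 at Impact, and kde was -5.05, -5.81, -4.16, -6.15, -5.33 and -7.53 at the same loci. The Grb10 islands had median kde of -3.95 and -3.81, near the -3.68 of island CpGs of the table, with narrow ranges at 0 of 106 and 17 of 94 CpGs. The slow rates rest in part on day 29: without it the median log2 kde over the whole window changed from -8.08 to -6.98 at Impact, from -7.25 to -6.70 at Trappc9 and from -6.15 to -6.77 at Igf2r, which brought these 3 loci close together.

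**Figure D5:**
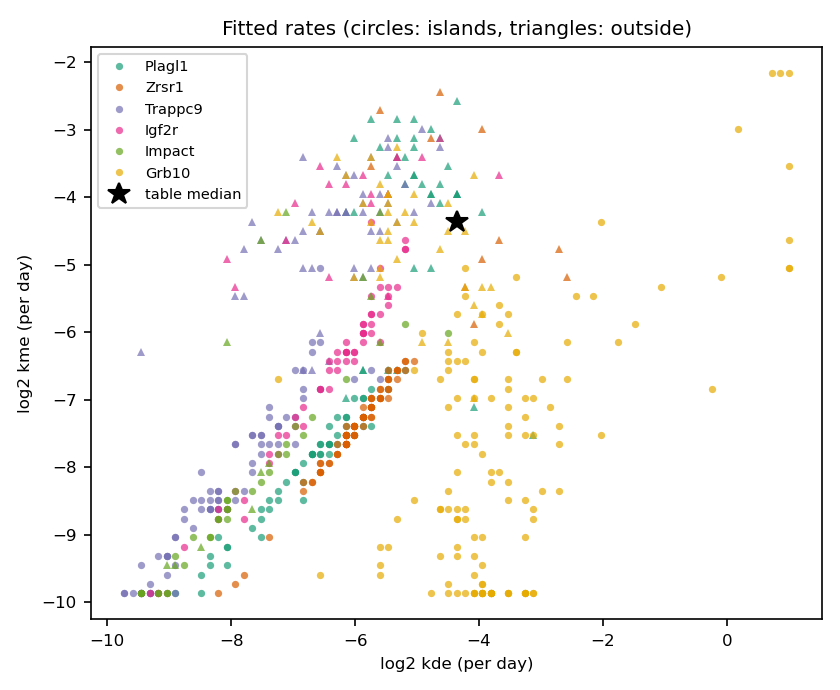
Fitted log2 kme against log2 kde (per day) for each of the 608 CpGs with identified rates, coloured by locus, with circles in islands and triangles outside, and the medians of the whole table as a star. Island CpGs of 5 loci lie along diagonals at low rates, because points of equal day 0 level have an equal ratio of the rates, and Grb10 island CpGs lie at higher kde than those of the other loci.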

How the data were processed

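SureSelect libraries from genomic DNA sheared to 150-200 base pairs were bisulfite converted and sequenced in paired-end mode. Alignment to mm9 was done by the authors with Rbowtie (QuasR) and level calling with qMeth; they deposited, for CpGs with at least 50 reads, the coverage (a count of reads) and the percent of reads called methylated, not normalized and with the 3 replicates pooled. Amplicon tables of the same authors hold no CpG in the 6 windows and were not used, nor were the deposited rates and classes, which are the authors' own results. The members and lists were chosen with earlier results of these data known.

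Methylated reads were computed as coverage times percent and were whole within the rounding of the file (0.05 percentage points) for 100% of values. Of all values 1.34% rest on over 1000 reads, where the rounding leaves more than 1 possible number. Two-sided Fisher's exact tests (numba 0.67.0) were run on every CpG of the table adjusted by Benjamini-Hochberg (threshold 0.05), and compare pooled libraries. Rates used the study's model, fitted once to the joined column of each condition where the study fitted replicates separately, with 80 rates per axis in steps of 1.1 up to 2 per day, DNMT3 decay of 0.5 per day, an undeleted share of 8%, conversion errors of 0.0025 and a binomial likelihood; identified means a border probability under 0.08. Tests, rates and island search were tested on simulated data. Annotation was GENCODE M1 on mm9, and all members read CG there. CpGs named singly have at least 100 reads in all 8 columns and, within the class of 30 to 70% at day 0, the largest or smallest share kept at day 29 of their locus, or, at any level, the largest difference TTKO minus WT. Alternatives were other coverage minimums (100 and 150 reads), over-dispersion, a 10 point minimum, other classes, a stricter island definition and other model settings.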

Additional observations from a re-analysis of the deposited data

How the results depend on the processing

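No paired analysis was possible because the replicates of each condition are joined in 1 column, and for the same reason leaving out single replicates was not run. The planned amplicon comparison gave no value, since no amplicon CpG lies in the windows. Of 218 values recomputed under an alternative, 199 stayed within 1.5 times of a count or within the counting interval or credible range of a value, and 19 moved. Counts at day 4 moved most: the 20 lower CpGs became 0 with an over-dispersion of 0.0055 between replicates, 11 with a minimum difference of 10 points and 1 without Grb10, and the 8 higher ones became 0 with over-dispersion and 0 without Plagl1. TTKO against WT gave 124 lower without Zrsr1 and 63 higher without Grb10. The kept share changed with the class of CpGs: with 30 to 70% taken in WT it was 69.2% at Grb10, 81.3% at Plagl1 and 71.2% at Zrsr1, and over all island CpGs 88.4% at Plagl1 and 71.9% at Zrsr1. Against day 4 in place of day 0, an alternative chosen after seeing the data, the island mean kept was 69.1% at Plagl1, 65.7% at Zrsr1, 95.1% at Trappc9 and 100.6% at Impact. The Grb10 island level at day 0 was 6.92% as a mean over CpGs and 9.55% weighted by reads. Narrow credible ranges numbered 48 with a beta-binomial likelihood and 116 without day 29. Without day 29 the median log2 kde of the window was -6.98 at Impact (-8.08 with all days), -6.70 at Trappc9 (-7.25) and -6.77 at Igf2r (-6.15), counted above as unmoved only because the credible ranges of slow CpGs are wide. The counts at day 29 and between lines kept their direction under over-dispersion, with 288 lower at day 29 and 181 lower and 146 higher in TTKO than in WT. Coverage limits what can be called at Igf2r most, where the median island CpG had 125 reads at day 0.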
